A study of Mus musculus with 2 samples.

Results

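Messenger RNA of the SR and hnRNP splicing regulators was measured in mouse embryonic stem cells. The set held every protein-coding gene whose symbol begins with Srsf followed by a number or with Hnrnp, together with Esrp1, Esrp2, Rbfox2, Mbnl1, Mbnl2, Mbnl3, Ptbp1, Ptbp2 and Tra2b, and pseudogenes were left out. It came to 40 genes of the 43629 with a count: 11 SR genes, 20 hnRNP genes and 9 other regulators. The cells were E14, a wild-type embryonic stem cell line taken from a blastocyst of 129/Ola background, and polyadenylated RNA was extracted with Trizol and made into TruSeq libraries. There was 1 group of 2 libraries, which carried the age labels P33 and P42. Such labels usually give a passage number in cell culture, but the labels do not spell this out, nor do they say that separate cultures were used. How much of the spread between the libraries is technical was not tested. Both libraries are of 1 line, and the labels name no treatment and no other genotype.

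SR proteins carry RNA recognition motifs and a domain rich in arginine and serine, bind exonic enhancers, and help the spliceosome to define exons. The hnRNP proteins coat nascent transcripts, and many of them silence exons or splice sites, although members of either family can act in both directions depending on where they bind. The other regulators are tied to cell type: ESRP proteins mark epithelial splicing, PTBP2 and RBFOX proteins are known for neural splicing, and MBNL proteins repress the splicing pattern of embryonic stem cells. Many SR and hnRNP genes limit their own messages through exons that lead to nonsense-mediated decay, and the counts per gene used here do not separate such isoforms.

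Total counts were 40139219 in P33 and 39657578 in P42, so that 1 CPM (counts relative to the library total, scaled by the TMM method) stood for 42.2 and 37.8 counts. Differences are given as the log2 ratio of CPM, P42 over P33, with an exact 95% interval that covers counting error only. With 1 library per age label no difference could be tested. The rule for calling a gene higher or lower asked for a mean of 1 CPM or more, a ratio of 2-fold or more, and an interval without equality. Levels of different genes are compared in TPM, which divide the counts by exon length before scaling to a fixed sum. All 8 embryonic stem cell markers, 2 of 6 fibroblast markers, 5 of 6 neural markers and 5 of 6 primitive endoderm markers reached 1 CPM in both libraries, and the fibroblast markers Postn and Lum had 0 counts. The 8 embryonic stem cell markers were mixed: 5 had a ratio above 0 and 3 below, with a median log2 ratio of 0.13, and 1 was counted as higher. Their summed share of the counts was 0.554% in P33 and 0.577% in P42. The 6 primitive endoderm markers were all counted as higher in P42, where 5.07% of all genes tested were. Their median log2 ratio was 1.56, and their summed share of the counts was 0.00343% in P33 and 0.0102% in P42. Of the neural markers, all 5 tested had a ratio above 0 (4 by total counts), with a median of 0.32. Elavl3, which averaged under 10 CPM, was counted as higher. The summed share of the neural list was 0.00647% and 0.00736%. The part of these markers in the differences described here was not tested, and in bulk RNA fewer cells of a type and less RNA per cell cannot be told apart.

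The splicing regulators were among the well expressed genes of these cells. Of the 40 genes, 39 reached 1 CPM in both libraries, against 54.0% of all protein-coding genes and 29.8% of all 43629. The exception was Srsf12, a close relative of Srsf10, with 37 counts in P33 and 42 in P42. The summed share of the 40 genes was 1.25% of all counts in P33 and 1.70% in P42. The median level was 169 TPM in P33 and 266 TPM in P42 for SR genes, and 168 and 306 TPM for hnRNP genes. The other regulators had medians of 20.2 and 15.3 TPM, near the 18.1 and 16.2 TPM of all protein-coding genes tested.

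**Figure D1:**
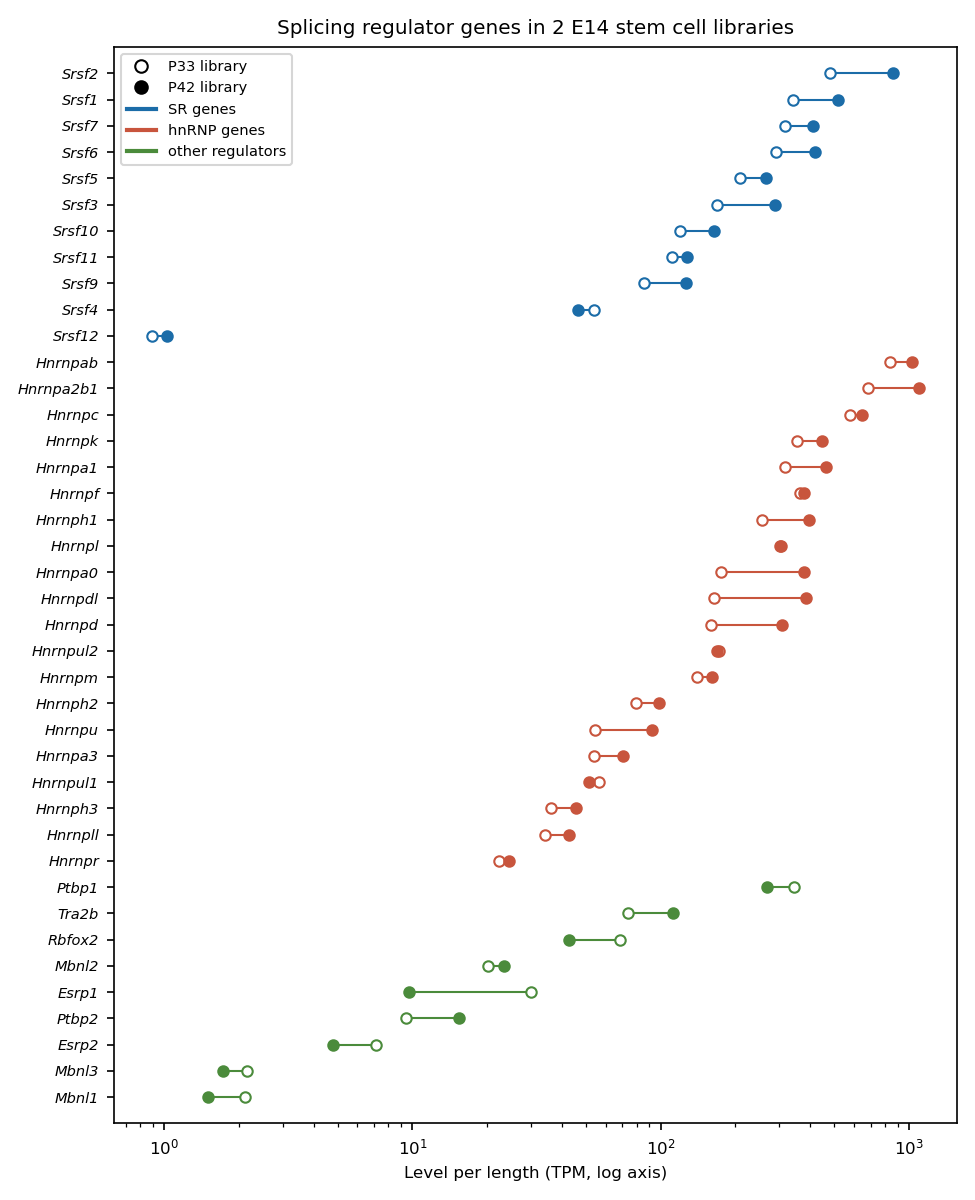
Level of each of the 40 genes in TPM on a log axis, with an open circle for the P33 library and a filled circle for the P42 library, ordered within families by the mean. SR genes run from Srsf12 near 1 TPM to Srsf2 at 479.7 and 859.5 TPM, and hnRNP genes from Hnrnpr at 22.2 and 24.4 TPM to Hnrnpab at 836 and 1028 TPM.

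Among the SR genes, Srsf2, whose protein binds exonic enhancers and whose mutations are known from blood cancers, had the highest level, with 479.7 TPM in P33 and 859.5 in P42 (mean 669.6 ± 269, SD, n = 2). Srsf1, the founding member of the family, had 341 and 518 TPM (429 ± 126). Srsf7 had 316 and 412 TPM (364 ± 67.6), Srsf6 had 291 and 417 (354 ± 89.7), and Srsf5 had 209 and 266 (237 ± 40.0). The ranges of Srsf1, Srsf7 and Srsf6 overlapped each other, but Srsf1 was above both others in each library, while Srsf7 and Srsf6 changed places. By the longest transcript the means of Srsf1, Srsf7 and Srsf6 were 367, 431 and 387 TPM, so the place of Srsf1 depends on the length used. Srsf3, the smallest SR protein and one needed for pluripotent cells, had 169 and 288 TPM, a range that held that of Srsf5. Srsf4, Srsf9, Srsf10 and Srsf11 lay between 46.6 and 163 TPM. Srsf12 had 0.892 and 1.02 TPM, below its paralog Srsf10 by 135-fold in P33 and 159.8-fold in P42, with only 37 and 42 counts behind the lower value. By the longest transcript these folds were 234 and 278, and the means of Srsf11 and Srsf10 were 261 and 212 TPM, beside 218 for Srsf5, so the order in the middle of the family depends on the length used.

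The most abundant hnRNP message per length was Hnrnpab, which encodes a protein known for RNA transport and transcription, with 836 TPM in P33 and 1028 in P42 (932 ± 136, SD, n = 2). Hnrnpa2b1, whose protein sorts RNAs and acts in splice silencing, had 681 and 1094 TPM (888 ± 292), a range that overlapped that of Hnrnpab. Hnrnpc, a core particle protein that binds uridine tracts, followed with 576 and 644 TPM (610.1 ± 48.0). Hnrnpk, which binds cytosine-rich RNA, had 353 and 446 TPM (399 ± 65.8), and Hnrnpa1, the best known splicing silencer, had 318 and 463 TPM (390.2 ± 103). The ranges of Hnrnpk and Hnrnpa1 overlapped, and both lay below that of Hnrnpc. Hnrnpr had the lowest level of the family per length, and its close relative Syncrip had 100.2 and 124 TPM. The annotated exons of Hnrnpr come to 22199 bases, against a median of 5897.5 for hnRNP genes. By counts Hnrnpr was not the lowest, with a mean of 171 CPM, where Hnrnph3 had 42.6 CPM. These levels depend on the length that is used: by the longest transcript instead of all annotated exons, the mean was 697 TPM for Hnrnpk, 1287 for Hnrnpa2b1 and 878 for Hnrnpab.

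Several of these genes have processed pseudogenes, copies of the spliced message elsewhere in the genome, that also held counts. Annotated processed pseudogenes that matched at least 80% of their length to a coding transcript at 80% identity or more numbered 63, and belonged to 14 of the 40 genes. In 11 of these genes the copies held more than 1% of the gene's own count in at least 1 library. The largest case was Hnrnpa1. Its copy Gm10052, at chr9:123689233-123690192, matched the Hnrnpa1 message over 960 bases with 0 mismatches, and it held 19376 counts in P33 and 19356 in P42, against 13198 and 19043 for Hnrnpa1 itself. All 14 copies of Hnrnpa1 together came to 150% of the gene's count in P33 and 105% in P42. A read that lies wholly in such a stretch matches both places, and how the counting treated it is not given in the sources used here, so the level of Hnrnpa1 is uncertain. The first 60 coding bases of the gene and the copy are shown as an example of a stretch with 0 mismatches.
Hnrnpa1: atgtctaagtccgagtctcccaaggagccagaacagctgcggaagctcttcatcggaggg
Gm10052: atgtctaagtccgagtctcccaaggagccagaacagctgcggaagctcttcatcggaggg

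The main copy of Hnrnpk was Gm7964, at chr7:83755904-83757281, which differed from the message at 11 of 1378 bases. It held 20562 counts in P33 and 19869 in P42, against 30033 and 37594 for Hnrnpk. The stretch from coding base 539 to 598 is shown with the mismatches in capitals.
Hnrnpk: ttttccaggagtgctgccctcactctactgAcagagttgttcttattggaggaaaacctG
Gm7964: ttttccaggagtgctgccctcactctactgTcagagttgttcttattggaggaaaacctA

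The copy of Srsf3, Gm9761 at chr3:116560935-116561426, differed at 2 of 492 bases and held 4448 and 4181 counts, against 17554 and 29654 for the gene. The copy of Tra2b, Gm10254 at chr3:54810384-54811250, differed at 11 of 867 bases and held 1993 and 1527 counts, against 8996 and 13564. Coding bases 218 to 277 of Srsf3 and 480 to 539 of Tra2b are shown beside their copies, again with mismatches in capitals. All coordinates are on GRCm38, and all sequences come from its GENCODE transcripts.
Srsf3: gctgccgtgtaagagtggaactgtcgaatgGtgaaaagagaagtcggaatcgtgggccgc
Gm9761: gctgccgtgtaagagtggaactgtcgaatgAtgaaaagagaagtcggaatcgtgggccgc
Tra2b: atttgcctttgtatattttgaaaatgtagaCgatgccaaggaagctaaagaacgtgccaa
Gm10254: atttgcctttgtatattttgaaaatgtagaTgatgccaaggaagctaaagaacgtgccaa

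The copies also differed from their genes in how they compared between libraries. The log2 ratio was 0.16 (0.13 to 0.19) for Gm10052 and 0.69 (0.66 to 0.72) for Hnrnpa1, and it was 0.40 when Hnrnpa1 and its copies were summed. For Gm7964 the ratio was 0.11 (0.08 to 0.14), for Hnrnpk 0.48, and for the sum of Hnrnpk and its copies 0.34. Srsf3 moved from 0.92 to 0.78 and Tra2b from 0.75 to 0.62 when their copies were added. Hnrnpa3, whose 22 copies held 34.8% of the gene's count in P33 and 24.8% in P42, moved from 0.53 to 0.42. Srsf5, whose copy Gm12966 had a ratio of 0.63, moved the other way, from 0.49 to 0.52. No gene changed sign and the same numbers were counted as higher and lower, 3 and 1, when copies were added, a setting chosen after the data were seen.

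**Figure D2:**
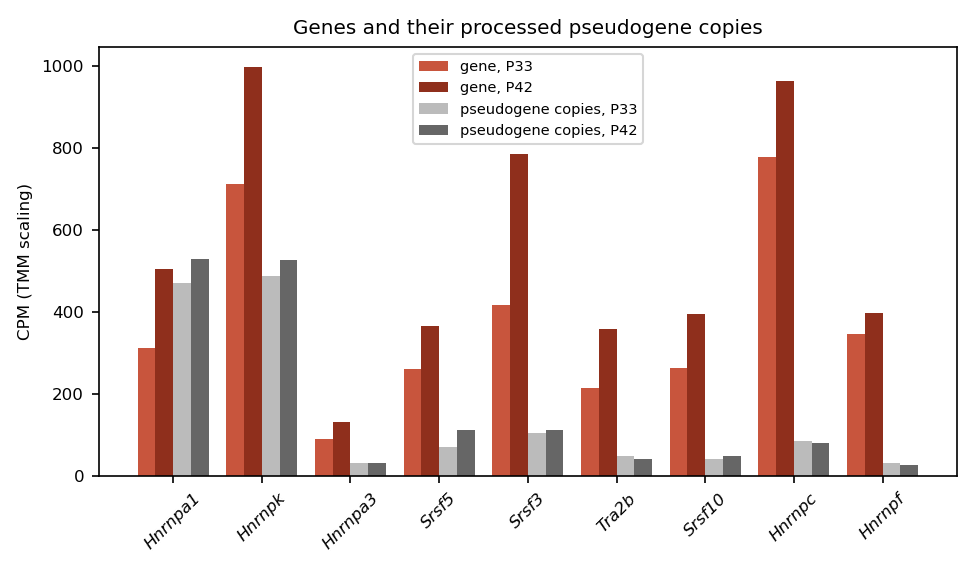
CPM of 9 genes and of the sum of their processed pseudogene copies in each library, for genes whose copies came to at least 20 CPM over the 2 libraries. The copies of Hnrnpa1 stand above the gene in both libraries, and those of Hnrnpk reach 68.5% of the gene in P33 and 52.9% in P42.

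Between the libraries, SR and hnRNP messages were mostly higher in P42. Of the 10 SR genes tested, 9 had a log2 ratio above 0, and so had 20 of the 20 hnRNP genes and 3 of the 9 other regulators. For comparison, 52.7% of the 13737 genes tested were above 0, and 68.1% of genes averaging 100 CPM or more, a level that 27 of the SR and hnRNP genes reached, all of them above 0. The median log2 ratio was 0.63 for SR genes, 0.47 for hnRNP genes and -0.22 for the other regulators, against 0.04 for all genes tested and 0.20 for the genes averaging 100 CPM or more. Past the 2-fold rule, 3 genes were higher in P42, Hnrnpdl, Hnrnpa0 and Hnrnpd, where 5.07% of all genes tested and 3.59% of those averaging 100 CPM or more were. Esrp1 was lower, where 9.54% and 2.11% were. At 1.5-fold, 15 of the 39 genes tested were higher (6 SR, 7 hnRNP and 2 others) and 1 was lower, against 16.1% and 18.9% of all genes. Of the 2422 genes averaging 100 CPM or more, 433 were higher and 168 lower at 1.5-fold. These 1.5-fold counts were made with TMM scaling only.

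Scaling by total counts in place of TMM moved every log2 ratio by -0.14, and the median of all genes to -0.10. On that scale 9 of 10 SR genes and 18 of 20 hnRNP genes remained above 0, where 42.6% of all genes did. Of the 2422 genes averaging 100 CPM or more, 1338 were above 0 by total counts, with a median of 0.06. Hnrnpul1 and Hnrnpul2 turned to -0.13 and -0.02. The ratio also fell with GC content across all genes, from a median of 0.33 to one of -0.49.

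**Figure D3:**
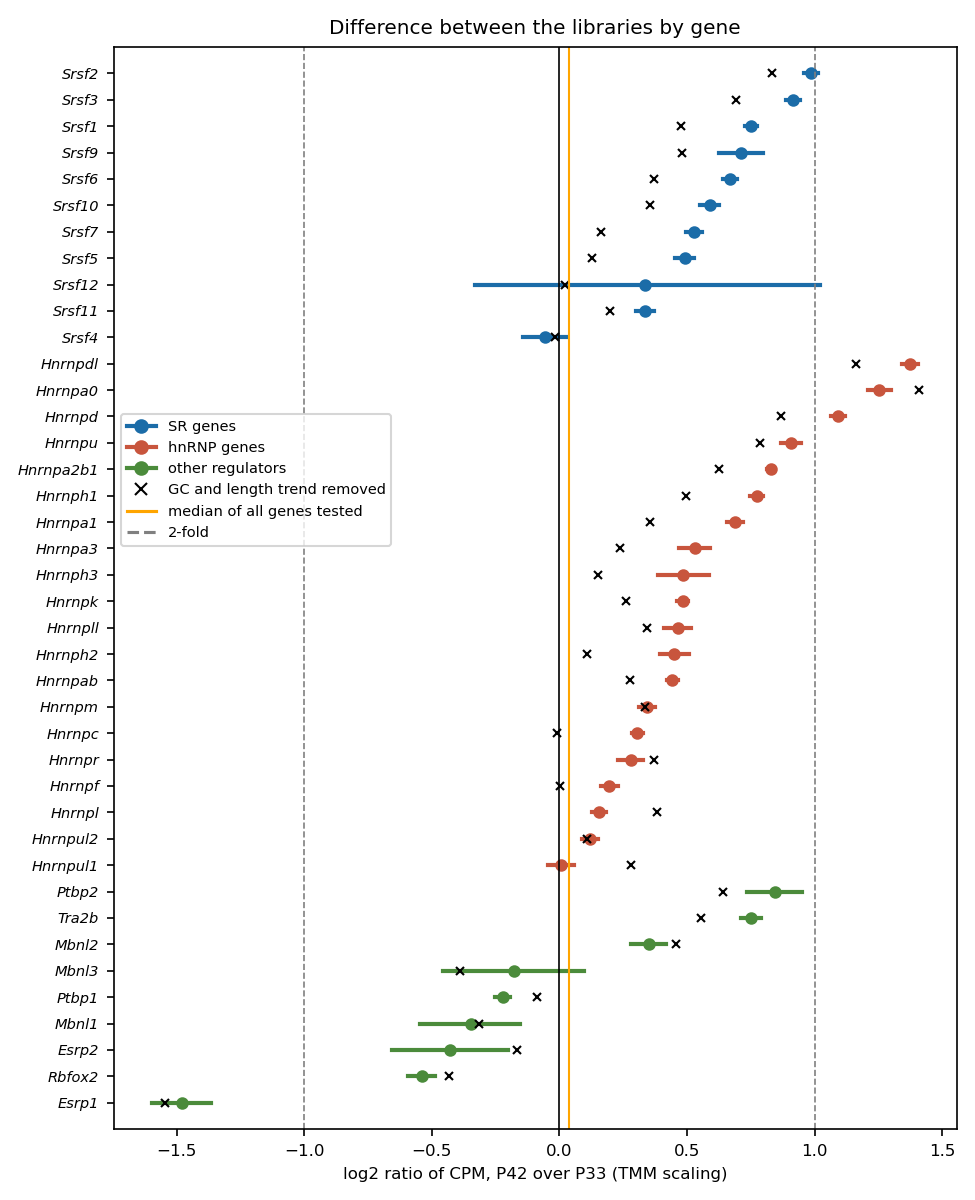
log2 ratio of CPM, P42 over P33, for each gene with its 95% counting interval, ordered within families, with a cross for the value after removal of the trend on GC content and exon length. Only Hnrnpdl, Hnrnpa0, Hnrnpd and Esrp1 lie past the dashed 2-fold lines, and Srsf12 is drawn with its wide interval although it was under the minimum for a count.

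The SR gene with the largest ratio was Srsf2, at 444 CPM in P33 and 879 in P42, a log2 ratio of 0.99 (0.96 to 1.01) that fell just short of 2-fold. Srsf3 had 416 and 785 CPM (0.92, 0.89 to 0.94), and Srsf1 had 608 and 1023 CPM (0.75, 0.73 to 0.77). At the other end, Srsf4, a larger SR protein similar to SRSF6, had 59.7 and 57.3 CPM, and its ratio of -0.06 (-0.14 to 0.03) included equality. Srsf4 was thus the exception among the 10 SR genes tested, while its paralog Srsf6 had 437 and 694 CPM and a ratio of 0.67. The level of Srsf6 over that of Srsf4 was 5.42-fold in P33 and 8.96-fold in P42. Srsf11 had a ratio of 0.34 and Srsf5 of 0.49, the lowest of the 9 that were above 0. The largest overlap with another gene was at Srsf4, where 43.0% of exon bases lie opposite Gm12992, a noncoding gene with only 37 and 38 counts. The remaining SR genes were Srsf6, Srsf9 (44.3 and 72.5 CPM, 0.71), Srsf10 (263 and 395 CPM, 0.59) and Srsf7 (351 and 505 CPM, 0.53). Their intervals lay above 0, and none reached 2-fold. After removal of the trend on GC content and exon length, Srsf2 (0.83) and Srsf3 (0.69) were still past 1.5-fold. Srsf1 (0.48), Srsf6 (0.37), Srsf9 (0.48) and Srsf10 (0.36), past it by TMM, then fell short. By total counts Srsf6 (0.53), Srsf9 (0.57) and Srsf10 (0.45) fell short.

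The hnRNP A/B and D branch, proteins with paired RNA recognition motifs and a glycine-rich tail, held all 3 genes counted as higher. Its 7 genes had a median log2 ratio of 0.83 (0.69 by total counts and 0.63 after removal of the GC and length trend). Of these genes 5 were past 1.5-fold upward, where 16.1% of all genes were. Among the 5 was Hnrnpa1 (0.69), whose level is uncertain. It fell short of 1.5-fold by total counts (0.55), after removal of the trend (0.35) and with copies added (0.40). Hnrnpdl, which encodes a protein like HNRNPD that limits its own message through nonsense-mediated decay, had 247 CPM in P33 and 639.7 in P42, a ratio of 1.37 (1.34 to 1.41). Hnrnpa0, which binds AU-rich elements of unstable messages, had 147 and 350.5 CPM (1.25, 1.21 to 1.30). Hnrnpd, known as AUF1 and a factor in AU-rich message decay, had 367 and 781 CPM (1.09, 1.06 to 1.12). Hnrnpd was past the 2-fold rule by TMM, but not by total counts (0.95) or after removal of the GC and length trend (0.87), where 3.85% of all genes were past it upward and 8.19% downward. Hnrnpdl (1.23 and 1.16) and Hnrnpa0 (1.11 and 1.41) were past it under both. The remaining A/B genes had smaller ratios: Hnrnpa2b1 had 1401 and 2489.6 CPM (0.83), Hnrnpa3 had 90.8 and 131 CPM (0.53), and Hnrnpab had 727 and 988 CPM (0.44). Hnrnpab shares 29.1% of its exon bases with Phykpl on the opposite strand, which had 200 and 292 counts against 30641 and 37313.

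Hnrnpd and Hnrnpdl are neighbours on chromosome 5. Hnrnpd lies at chr5:99955935-99978938 and Hnrnpdl at chr5:100033577-100039664, 54.6 kb apart on the same strand with no tested gene between them. Enoph1, the next tested gene, had a log2 ratio of 0.40, and the median of chromosome 5 was -0.01. Hnrnpa0, at chr13:58125879-58128556, had 5 tested neighbours within 250 kb with a median of 0.20, and the low-count gene Spock1 among them was also counted as higher (1.30, with 1.09 and 2.70 CPM). Hnrnpk lies on the same chromosome 263 kb from Hnrnpa0.

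The other hnRNP branches had smaller median ratios: 0.47 for the F and H genes, 0.31 for the L genes, 0.31 for the M and R genes, and 0.12 for the U genes. After removal of the GC and length trend these medians were 0.13, 0.36, 0.35 and 0.28, so the order of these branches depends on the setting. On that scale Hnrnpf was at 0.00 and Hnrnpul1 at 0.28. Within the F and H branch, proteins that bind runs of guanine, Hnrnph1 had 469 and 801 CPM (0.77), and Hnrnpf had 347 and 397 CPM (0.19). Between them lay Hnrnph3 (35.5 and 49.7 CPM, 0.49) and Hnrnph2 (109 and 149 CPM, 0.45). The U branch, large nuclear scaffold proteins, was the most uneven. Hnrnpu had 197 and 370.1 CPM (0.91), whereas Hnrnpul1 had 153 CPM in both libraries (0.01, -0.04 to 0.06) and Hnrnpul2 had 380.4 and 413 CPM (0.12, 0.09 to 0.15). Hnrnpu is the only gene of the set on chromosome 1, where the median of 847 genes was 0.60 (0.53 after removal of the trend). Hnrnpl, a binder of CA repeats, had 562 and 625 CPM (0.16), and its paralog Hnrnpll, known from T cell splicing, had 125 and 172 CPM (0.46). After removal of the trend the ratios of this pair were 0.38 and 0.34. Per length Hnrnpl was above Hnrnpll 8.82-fold in P33 and 7.12-fold in P42. Hnrnpm had 349 and 443 CPM (0.34), and shares 14.7% of its exon bases with March2 on the same strand, which had 492 and 463 counts. Hnrnpr had 154 and 187 CPM (0.28). Hnrnpc had 778 and 962 CPM (0.31), and its ratio became -0.01 once the trend on GC content and exon length was removed.

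The 9 other regulators divided, with 3 above 0 and 6 below. Ptbp2, the PTB protein of neurons, had 27.1 and 48.6 CPM (0.84, 0.74 to 0.95), while Ptbp1, the widely expressed paralog that represses Ptbp2 in non-neural cells, had 512 and 439 CPM (-0.22, -0.25 to -0.19). The level of Ptbp1 was above that of Ptbp2 36.6-fold in P33 and 17.5-fold in P42, and by the longest transcript 24.1-fold and 11.5-fold. Ptbp3, a paralog from the related genes, had 76.4 and 83.6 TPM, between its paralogs in both libraries. Tra2b, an SR-like activator, had 213 and 359 CPM (0.75), and its paralog Tra2a had 187 and 299 CPM (0.68), so the level of Tra2b over Tra2a was 0.859 in P33 and 0.904 in P42. By the longest transcript it was 1.05 and 1.11, so the order of the pair depends on the length used.

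Esrp1, the main epithelial splicing regulator, was the 1 gene of the set counted as lower. It had 59.1 CPM in P33 and 21.2 in P42, from 2491 and 800 counts, a log2 ratio of -1.48 (-1.60 to -1.36), which was -1.62 by total counts and -1.54 after removal of the trend. Per length it had 30.0 and 9.72 TPM, and its rank among protein-coding genes at 1 CPM or more went from the percentile 63.5 to 37.0. Esrp2 had 9.66 and 7.18 CPM (-0.43, -0.66 to -0.20), so that Esrp1 was above Esrp2 4.21-fold in P33 and 2.03-fold in P42. Esrp2 shares 5.05% of its exon bases with Nfatc3 on the opposite strand, which had 5510 and 6017 counts against 407 and 271 for Esrp2. Whether the counting used strand is not given in the sources used here, so the count of Esrp2 is uncertain. Esrp1 lies at chr4:11331933-11386783. Its 8 tested neighbours within 250 kb had a median of -0.15, with Trp53inp1 counted as lower (-1.26) and Ccne2 as higher (1.12).

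Rbfox2, a regulator that binds near alternative exons, was the most abundant RBFOX gene. It had 174 CPM in P33 and 119.9 in P42 (-0.54, -0.59 to -0.49). Rbfox2 lies on chromosome 15, where the median of 539 genes was -0.61 (-0.55 after removal of the trend). Hnrnpa1, on the same chromosome, had 313 and 504 CPM and a ratio of 0.69, on the other side of that median. Rbfox3 had 31 and 21 counts, 169-fold and 154-fold below Rbfox2 per length, and Rbfox1 had 1 and 2 counts. Among the MBNL genes Mbnl2 was the most abundant, with 75.7 and 96.5 CPM (0.35, 0.28 to 0.42). Mbnl1 had 12.4 and 9.74 CPM (-0.35, -0.54 to -0.15), and Mbnl3 had 5.91 and 5.22 CPM (-0.18, -0.46 to 0.10). Per length Mbnl2 was above Mbnl1 9.52-fold in P33 and 15.4-fold in P42, and by the longest transcript 6.20-fold and 10.1-fold. The levels of Mbnl1 and Mbnl3 were 2.12 and 2.16 TPM in P33 and 1.51 and 1.73 TPM in P42, and their ranges overlapped. By the longest transcript their means were 4.82 and 2.94 TPM, so that likeness depends on the length used.

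**Figure D4:**
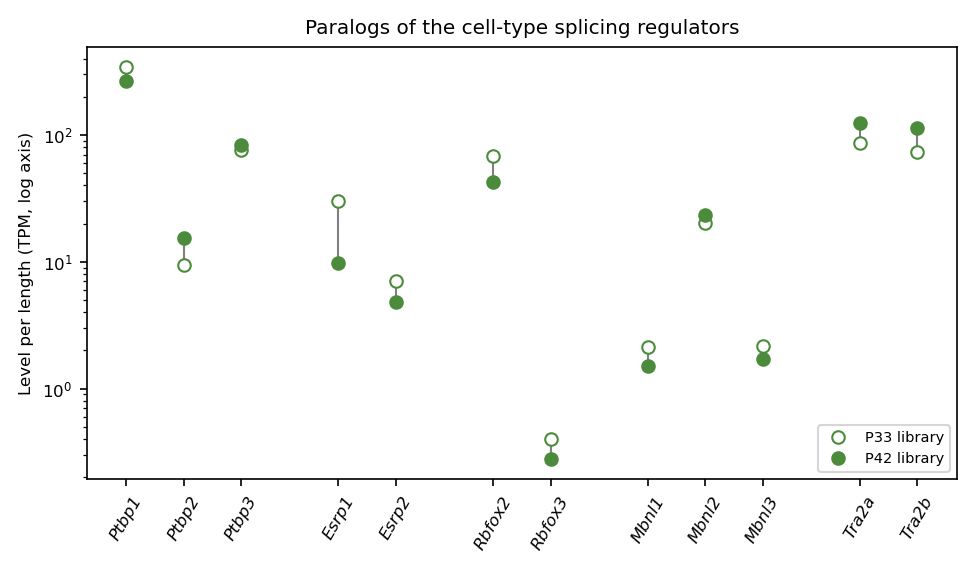
Level in TPM on a log axis of the PTBP, ESRP, RBFOX, MBNL and TRA2 genes, with an open circle for the P33 library and a filled circle for the P42 library. In each of the first 4 groups 1 gene stands above its paralogs in both libraries, and Ptbp1 and Ptbp2 come closer in P42 while Mbnl2 and Mbnl1 move apart. Rbfox1 is left out, with 1 and 2 counts.

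Base composition moved with the library difference across all genes. With the genes cut by GC content into 10 bins of equal size, the median log2 ratio went from 0.33 in the poorest bin to -0.49 in the richest, and Spearman's rho of the ratio with GC content was -0.39 over 13668 genes, which share both libraries and are not independent replicates. Over the 40 splicing regulators rho was -0.35. These genes are poor in GC, with a median of 43.9% against 49.7% over all genes tested, and 13 of the 40 fell in the poorest bin. Those 13 had a median of 0.53 and the 7 in the next bin 0.59, against 0.33 and 0.29 for all genes of these bins. When a smooth trend on GC content and exon length was removed, the median was 0.36 for SR genes, 0.34 for hnRNP genes and -0.17 for the others, against -0.01 for all genes. On that scale 9 of 10 SR and 19 of 20 hnRNP genes stayed above 0, where 49.3% of all genes did. Of the 2422 genes averaging 100 CPM or more, 1454 were above 0 on that scale, with a median of 0.09. Hnrnpa0, with a GC content of 55.4%, had a larger ratio after the trend was removed, 1.41 in place of 1.25.

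**Figure D5:**
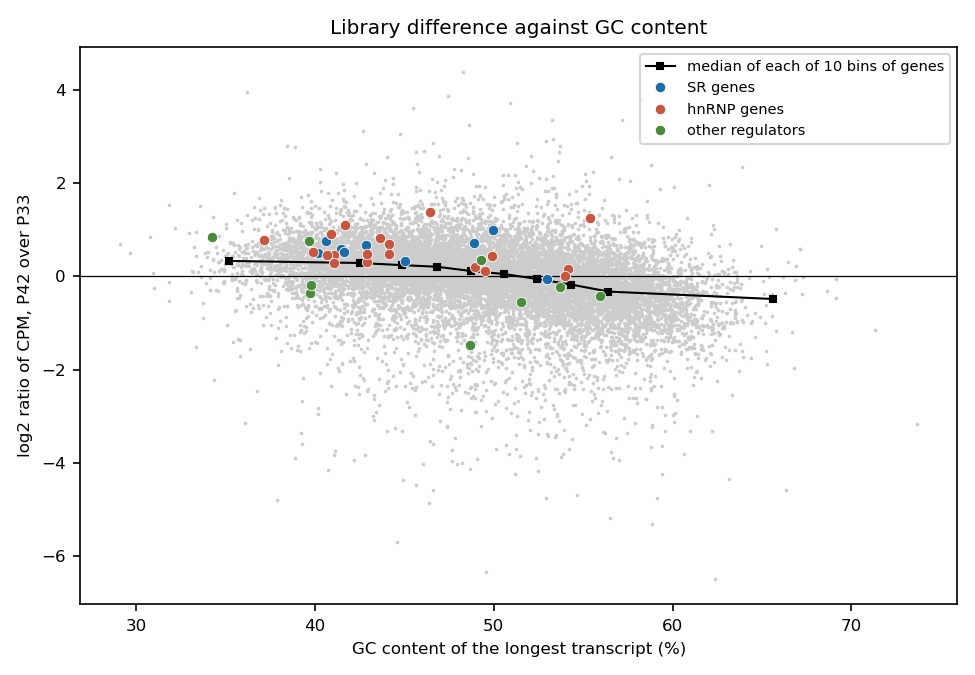
log2 ratio of CPM, P42 over P33, against the GC content of the longest transcript for every gene tested (grey), with the median of each of 10 bins of genes drawn at the middle of its GC range (squares) and the splicing regulators in colour. The medians run from 0.33 to -0.49, and most SR and hnRNP genes lie to the left with ratios over 0.

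Promoter sequence is given as a description of the genes, and its relation to the difference between libraries was not tested. RefSeq windows of 250 bases before the start, on GRCm38.p6, were found for 35 of the 40 genes, and not for Hnrnpll, Hnrnpul2, Esrp1, Esrp2 and Rbfox2. Some windows lie away from the GENCODE start, by 2349 bases at Hnrnpl, 1402 at Hnrnpm and 1226 at Hnrnpk, and overlap exons of the same gene. The motif shares include such windows. Motifs were searched on both strands. The CCAAT box, with the letters CCAAT, was found in 12 of 18 hnRNP windows (66.7%) and 3 of 11 SR windows (27.3%), and in 37.1% of windows of protein-coding genes tested. The GC box, with the letters GGGCGG, was found in 10 of 11 SR windows (90.9%) and 13 of 18 hnRNP windows (72.2%), against 61.5% of the genes tested. The TATA box, TATAAA, was found in 11.4% of the windows of the set and 5.83% of those of the genes tested. The E-box searched, CACGTG, was found in 11.4% and 8.70%. The ETS motif searched, CCGGAAG, was found in 17.1% and 14.6%. The median number of CpG pairs was 23 in the set and 16 in the genes tested.

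Windows of 3 genes that differ in motif content are shown 5′ to 3′ on the strand of the gene, with CCAAT and GC boxes of either strand in capitals. They are Hnrnpa0 (chr13:58128557-58128806, minus strand), the hnRNP gene with the richest GC content in this window (81.2%, with 46 CpG pairs), Hnrnpa2b1 (chr6:51469895-51470144, minus strand), the hnRNP gene with the most counts, which has a CCAAT box and no GC box, and Srsf6 (chr2:162931258-162931507, plus strand), with 2 GC boxes and no CCAAT box. A match to these letters is a description of the sequence, and binding was not measured.
Hnrnpa0: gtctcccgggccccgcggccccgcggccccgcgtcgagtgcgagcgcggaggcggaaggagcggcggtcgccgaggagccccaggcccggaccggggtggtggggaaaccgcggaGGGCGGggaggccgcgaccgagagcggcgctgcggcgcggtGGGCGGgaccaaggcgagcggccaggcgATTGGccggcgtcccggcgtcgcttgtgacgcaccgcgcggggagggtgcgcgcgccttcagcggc
Hnrnpa2b1: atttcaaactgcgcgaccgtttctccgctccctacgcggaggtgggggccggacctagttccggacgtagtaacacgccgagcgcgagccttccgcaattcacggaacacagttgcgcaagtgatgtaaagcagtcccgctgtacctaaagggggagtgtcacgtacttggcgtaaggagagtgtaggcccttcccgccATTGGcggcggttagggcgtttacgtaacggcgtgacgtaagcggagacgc
Srsf6: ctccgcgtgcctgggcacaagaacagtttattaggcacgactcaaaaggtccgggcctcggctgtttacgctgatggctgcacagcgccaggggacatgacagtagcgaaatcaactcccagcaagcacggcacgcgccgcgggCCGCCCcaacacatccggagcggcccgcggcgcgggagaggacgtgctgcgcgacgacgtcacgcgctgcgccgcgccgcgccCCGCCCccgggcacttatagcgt

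Other genes of splicing were described by 8 lists, whose median log2 ratios ran from -0.18 to 0.48. Their counts are to be read against the 52.7% of all genes above 0 and the 5.07% and 9.54% past 2-fold upward and downward, and several lie near those shares. SR protein kinases and import factors, which phosphorylate SR proteins and carry them into the nucleus, had 8 of 9 genes above 0 and a median of 0.33, with none past 2-fold. By total counts 6 of these 9 genes were above 0, and 6 were after removal of the GC and length trend. Tnpo3, the importin of SR proteins and the most abundant of them per length, had 406 CPM in P33 and 375 in P42 (-0.12), and Prpf4b had 175 and 192 CPM (0.13). SR-related proteins had 14 of 19 above 0 and a median of 0.22, with none past 2-fold, and the nuclear speckle scaffold Srrm2 had 1034 and 895 CPM (-0.21) and Srrm1 364 and 412 CPM (0.18). Relatives of the hnRNP proteins had 14 of 17 above 0 and a median of 0.25, with none past 2-fold. Pcbp2, a binder of cytosine-rich RNA on chromosome 15, had 1075 and 1229 CPM (0.19), and Pcbp1 had 229 and 208 CPM (-0.14).

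The order of these medians depended on the setting: after removal of the GC and length trend the SR kinase list was at 0.45 and the Sm proteins at 0.09. Proteins of the U1 and U2 particles and of splice site recognition had 11 of 20 genes above 0 and a median of 0.05 (-0.09 by total counts), with none past 2-fold. Sf3b1, the core U2 protein, had 867 and 1204 CPM (0.47), and lies on chromosome 1. Rbm17 had 181 CPM in both libraries (0.01). Proteins of the tri-snRNP and the catalytic core had 9 of 23 above 0 and a median of -0.18. The central scaffold Prpf8 had 1232 and 814 CPM (-0.60), and Cdc5l had 359 and 465 CPM (0.37). Xab2, with 78.8 and 38.6 CPM (-1.03), was the 1 gene of the list counted as lower by TMM, whereas 4 were by total counts and 0 after removal of the trend (-0.77 for Xab2). The Sm ring proteins had 6 of 7 above 0 and a median of 0.48. Snrpe, on chromosome 1, was counted as higher, with 107 and 261 CPM (1.28, and 0.88 after removal of the trend, short of 2-fold), and Snrpd1 had 126 and 179.8 CPM (0.51).

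In a list made up mainly of tissue splicing regulators, 16 of the 23 genes tested were above 0, with a median of 0.27, and 2 were counted in each direction. Elavl3 (5.72 and 12.3 CPM, 1.10) and Elavl2 (25.7 and 53.1 CPM, 1.05), RNA-binding proteins best known in neurons, were higher in P42, and by total counts neither reached 2-fold (0.96 and 0.91), nor did Elavl2 after removal of the trend (0.82). Rbm20 (3.75 and 1.03 CPM, -1.85), the titin splicing factor of muscle, and Nova2 (14.3 and 3.97 CPM, -1.84), a neural regulator, were lower. Elavl3, Rbm20 and Nova2 averaged under 10 CPM, and with that minimum 1 gene of the list was higher and 0 were lower. By total counts 4 genes of the list were lower and 0 higher. Sfpq and Nono, the most abundant genes of the list, had ratios of 0.18 and 0.71. The nonsense-mediated decay factors had 4 of 10 genes above 0 and a median of -0.16, and after removal of the trend 6 of 10 and a median of 0.07. Smg9 was counted as lower (12.7 and 6.14 CPM, -1.05), but not after removal of the trend (-0.56) or with a minimum of 10 CPM. Upf2 had a ratio of 0.52.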

How the data were processed

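Each deposited table holds the authors' raw counts of reads for Ensembl genes, as whole numbers without normalization. The submitters' processing notes list the aligner STAR (2.4.2a), the counter featureCounts (1.4.5-p1) and the assembly mm10. The labels name a reverse-stranded protocol. Which annotation was counted, and how strand and multi-mapped reads were treated, is not given in the sources used here. Of 43629 identifiers, 42548 matched GENCODE M21 on GRCm38 (the assembly also called mm10), and the rest held 0.155% and 0.174% of the counts.

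Counts were scaled by TMM (edgeR 4.0.16). The log2 ratio used a prior count of 0.5, with an exact Clopper-Pearson 95% interval for the share of counts in P42. Intervals cover counting error only. TPM were computed from counts and merged exon length, and have their own scaling. The 2-fold rule was applied to the 13737 genes that averaged 1 CPM or more. No fit of a count model was made, because each age label has 1 library. The rule was tried on simulated counts that held counting error only. The interval assumes the same error, so the simulation could not show how the rule behaves under other variation between libraries. Pseudogene copies were found with blastn 2.17.0 against protein-coding transcripts.

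Values are given for the 5 most abundant SR and hnRNP genes and the lowest of each, genes counted higher or lower, the paralogs of the other regulators, genes on chromosomes 1 and 15, the 3 highest and lowest ratios of each family, and from each related list the 2 most abundant genes and those counted higher or lower; values of the remaining members and of copies, overlapping genes and neighbours were added after they were seen. The value of 1 gene the rule would name is not reported here. The genes and lists were chosen with earlier results of these data known. Other settings tried were size factors of DESeq2 1.42.0, scaling by total counts, removal of the GC and length trend (lowess, span 0.3), other minimums, folds and prior counts, chromosomes left out and, chosen after the data were seen, pseudogene copies added.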

Additional observations from a re-analysis of the deposited data

How the results depend on the processing

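In the set, 3 genes were higher and 1 was lower with DESeq2 size factors, without a CPM minimum, or with 10 CPM. The same held without chromosomes 1, 15 and Y, or with pseudogene copies added. The number of genes tested changes with the CPM minimum and with the chromosomes left out. Total counts and removal of the GC and length trend each left 2 and 1. At 1.5-fold, counted with TMM scaling only, 15 were higher. The median log2 ratio of the set (0.48) was 0.34 with total counts, 0.33 with the trend removed, 0.47 without a minimum, 0.49 at 10 CPM, 0.47 without those chromosomes and 0.44 with copies. For SR genes (0.63) it was 0.62 with DESeq2 size factors, 0.49 with total counts, 0.36 with the trend removed, 0.59 without a minimum and 0.60 with copies. For hnRNP genes (0.47) it was 0.33, 0.34, 0.46 and 0.43 with total counts, the trend removed, those chromosomes left out and copies added. All of these medians stayed above 0. Over all genes, 697 higher and 1311 lower became 1080 and 2349 without a minimum, 322 and 434 at 10 CPM, 2205 and 2603 at 1.5-fold, and 466 and 1658 with total counts. The related lists, with 3 higher and 4 lower, had 1 and 9 with total counts, 1 and 2 with the trend removed, 1 lower at 10 CPM, and 16 and 15 at 1.5-fold. With 1 library left out, the median level ran from 169 to 266 TPM for SR genes and from 168 to 306 for hnRNP genes, the share of counts from 1.25% to 1.70%, and the genes detected from 39 to 40. No sign changed with DESeq2 size factors, a prior count of 2 or copies, 2 did with total counts and 1 with the trend removed. The cause of these shifts was not tested. No paired analysis was possible because the labels hold 1 group with 1 library per age label.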
